A study of Bos taurus with 16 samples.

Results

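Macrophages derived from blood monocytes of Holstein and Gir cattle were compared after lipopolysaccharide (LPS), in the 8 LPS treated RNA-seq libraries of a series of 16. The 4 Holstein libraries came from animals 1, 3, 20 and 50, which the labels call Taurine, and the 4 Gir libraries came from animals 2, 5, 6 and 7, which the labels call Indicine. All 8 libraries of the LPS condition were used, and each came from a separate animal, so the breeds were compared without pairing. The other 8 libraries were unstimulated MDMs (monocyte-derived macrophages) of the same animals, and are used below to show the same genes without LPS, to scale their values and, as an alternative, in 1 model of all 16 libraries.

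In both breeds the monocytes were differentiated in culture for 11 days before 100 ng/ml LPS was given for 48 h. The study's methods give an age of 6 to 12 months for the cattle. An MDM is a cultured model of a tissue macrophage, and a bulk library of such a culture holds the RNA of every cell in the dish, so that fewer cells of a type and less RNA per cell cannot be told apart. Holstein is a dairy breed of Bos taurus and Gir is a humped breed of Bos indicus, the subspecies kept widely in the tropics.

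Macrophages are resident phagocytes that detect microbes through pattern recognition receptors. LPS, which Gram-negative bacteria carry on their outer surface, is sensed by Toll-like receptor 4 with its partners CD14 and MD-2, and the receptor signals through NF-kB and interferon regulatory factors to cytokine, chemokine and interferon-response genes. After many hours of exposure these cells carry both the products of this response and those of the genes that limit it, so a comparison at one late time shows the state reached and not its course.

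The files list genes by Ensembl identifier. None of the 27607 identifiers was paired with a symbol in the reference table used here, so genes are described by direction, abundance and fold, and only 4 are named, by identifier. Macrophage markers were therefore not analysed here, and the cell type stands as the labels give it.

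The 8 libraries held between 7527058 and 10296054 counts in genes, so 1 CPM (a count scaled to library size) stood for 7.53 to 10.3 counts. Total counts overlapped between the breeds (two-sided exact permutation test, p = 0.857, with 0.0286 the smallest p that 4 against 4 libraries allow). The 10 most abundant genes took 23.15% ± 1.72 of a Holstein library and 26.23% ± 1.96 of a Gir library (SD, 4 animals a breed, exact permutation p = 0.0571). Of the 11986 genes tested, those with at least 1 CPM in at least 4 libraries, 20.25 ± 8.22 had no count in a Holstein library and 64.25 ± 23.9 had none in a Gir library (SD, 4 animals a breed, exact permutation p = 0.0286), a number that depends on the filter. After Benjamini-Hochberg adjustment over the 8 library measures compared, the lowest exact permutation p was 0.152.

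At an adjusted p under 0.05 (edgeR's quasi-likelihood test with Benjamini-Hochberg adjustment) and a log2 fold change of 1 or more in either direction, 881 genes differed between the breeds after LPS, 7.35% of the genes tested. These DEGs (differentially expressed genes) divided into 391 that were higher in Holstein, 3.26% of the genes tested, and 490 that were higher in Gir, 4.09%. Log2 fold changes are given throughout as Holstein minus Gir. The CPM of the 4 Holstein libraries did not overlap those of the 4 Gir libraries in 836 of the DEGs, against 15.0% of all genes tested. This lack of overlap held for 358 of the 391 DEGs higher in Holstein and for 478 of the 490 higher in Gir. The direction with more DEGs turned without the filter on low counts, where the edgeR test called 603 genes higher in Holstein and 552 higher in Gir among 18770 tested. It also turned with DESeq2's Wald test under that tool's own filter (767 and 645 among 14712 tested), but not with the same Wald test on the genes of the 1 CPM filter (529 and 587 among the 11958 given an adjusted p). In the model of all 16 libraries the direction with more DEGs did not turn, with 236 higher in Holstein and 501 higher in Gir among 12968 tested. Among the 881 DEGs, the smallest absolute log2 fold change was 1.001 and the largest edgeR adjusted p was 0.04998.

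The 2 directions held genes of different abundance. The DEGs higher in Gir lay at 10 to 100 CPM in 276 of 490, as did 6608 of the 11986 genes tested, and those higher in Holstein did so in only 124 of 391. The DEGs higher in Holstein had a median of 12.8 CPM in Holstein and 1.47 CPM in Gir. The DEGs higher in Gir had a median of 23.6 CPM in Gir and 5.52 CPM in Holstein. CPM is not divided by gene length, so these are depths of counting and not levels of transcript per length. The DEGs of both directions were chosen on these same libraries, so the values that follow describe them and were not tested.

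**Figure D1:**
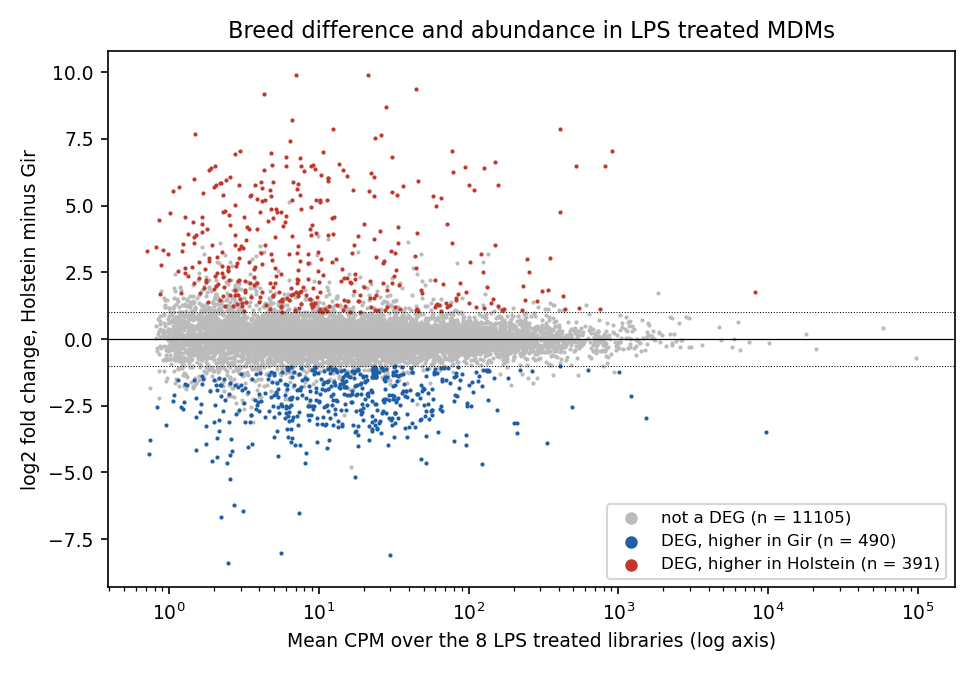
Mean CPM of each of the 11986 tested genes over the 8 LPS treated libraries (log axis) against its log2 fold change, Holstein minus Gir, with dotted lines at absolute log2 fold changes of 1. The red points, 391 DEGs higher in Holstein, extend further from 0 than the blue points, 490 DEGs higher in Gir.

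By mean CPM, the largest class was 6608 genes at 10 to 100 CPM, of which 124 were DEGs higher in Holstein and 276 were DEGs higher in Gir, 1.88% and 4.18% of the class. At 1 to 10 CPM the order turned, with 223 of 3727 genes higher in Holstein (5.98%) and 179 higher in Gir (4.8%). At 100 to 1000 CPM the counts lay closer, with 36 of 1487 genes higher in Holstein (2.42%) and 27 higher in Gir (1.82%). The classes at the ends were small, with 7 of 76 genes higher in Holstein (9.21%) and 4 higher in Gir (5.26%) under 1 CPM, and 1 of 88 higher in Holstein (1.14%) and 4 higher in Gir (4.55%) at 1000 CPM or more. More DEGs were thus higher in Gir at 10 to 100 CPM, where 31% of the DEGs were higher in Holstein, and at 1000 CPM or more. In the model of all 16 libraries, which tested 12968 genes, the order at 1 to 10 CPM turned (3.17% higher in Holstein and 4.56% higher in Gir), and at 100 to 1000 CPM it turned in that model (1.62% and 1.75%) and without Holstein animal 50 (1.5% and 2.52%). The shares were equal at 100 to 1000 CPM without Gir animal 7 (1.76%) and at 1000 CPM or more without Holstein animal 1 (3.26%). Under 1 CPM the order turned in the model of all 16 libraries (2.02% higher in Holstein and 3.2% higher in Gir). It also turned there with classes set by the average log2 CPM (25% and 50%).

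The classes of low CPM were read with less precision. The median standard error of the log2 fold change was 0.572 under 1 CPM, 0.374 at 1 to 10 CPM and 0.223 at 10 to 100 CPM, and the median mean count per library was 7.88, 35.6 and 250 respectively. Of the genes with a log2 fold change of 1 or more in either direction, 42.3% passed the adjusted p under 1 CPM, 48.6% did so at 1 to 10 CPM and 68.7% did so at 10 to 100 CPM. Over all classes 1533 genes had such a fold and 652 of them did not pass.

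**Figure D2:**
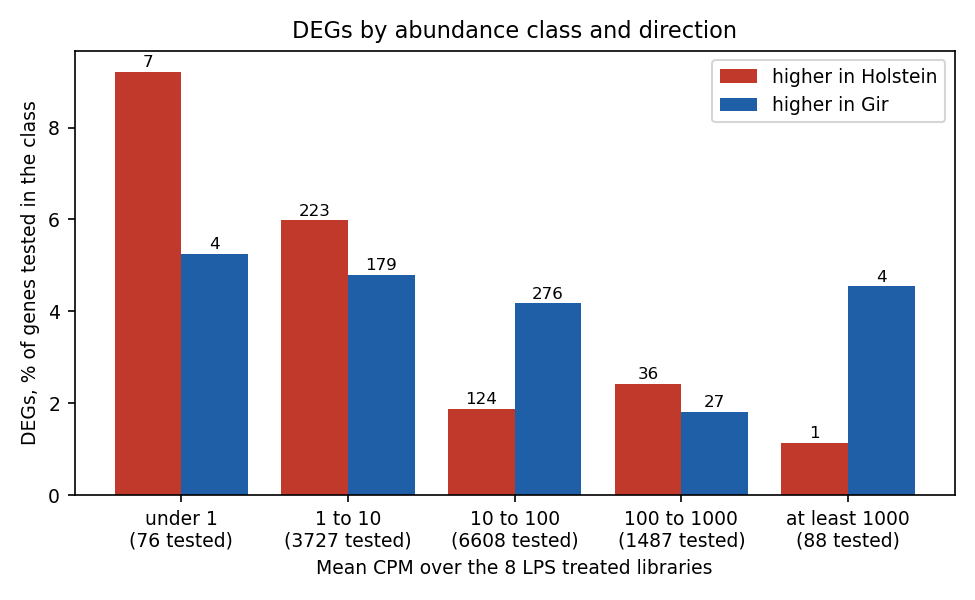
Percentage of tested genes that were DEGs in each class of mean CPM, with red bars for genes higher in Holstein, blue bars for genes higher in Gir, and the number of DEGs above each bar. The blue bar is above the red at 10 to 100 CPM (276 against 124 DEGs), and the red bar is above the blue at 1 to 10 CPM (223 against 179).

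Of the 1000 tested genes with the highest mean CPM, 38 were DEGs (3.8%, against 7.35% of all genes tested), 23 higher in Holstein and 15 higher in Gir. Of the top 100, 6 were DEGs (6%, near the share of all genes), 2 higher in Holstein and 4 higher in Gir.

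In counts, the DEGs made up a small share of each library. The 391 genes higher in Holstein took 2.854%, 2.874%, 4.871% and 4.572% of the counts in Holstein animals 1, 3, 20 and 50, and 0.7343%, 0.8671%, 0.9267% and 0.8349% in Gir animals 2, 5, 6 and 7. The 490 genes higher in Gir took 5.429%, 3.625%, 4.527% and 5.028% of the counts in the same Gir animals, and 1.005%, 0.8257%, 0.7935% and 1.025% in the Holstein animals. Together the DEGs held 4.705% ± 1.07 of the counts of a Holstein library and 5.493% ± 0.728 of those of a Gir library (SD, n = 4 each). These shares rested on few genes. In Holstein 7 genes held 50% of the counts of the first set and 1 gene held 32.9% of them, and in Gir 4 genes held 50% of the counts of the second set and 1 gene held 37.2%.

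The fold changes of the DEGs higher in Holstein reached further, in the test of the 8 LPS libraries, than those of the DEGs higher in Gir. Among the DEGs higher in Holstein the absolute log2 fold change had a median of 2.75, with quartiles of 1.66 and 4.79. Among the DEGs higher in Gir it had a median of 2.11, with quartiles of 1.51 and 2.84. Up to a log2 fold change of 4 there were 262 DEGs higher in Holstein and 466 higher in Gir, and at 4 or more there were 129 (33%) and 24 (4.9%). Among all genes tested 155 reached 4, which is 1.29%. With a prior count of 2 added in the shrunken estimate, the numbers at 4 or more were 93 and 12. In the model of all 16 libraries the medians were 2.16 for DEGs higher in Holstein and 2.21 for those higher in Gir, so their order turned, and the numbers at 4 or more were 64 and 40 among 12968 genes tested. On the 11986 genes of the 1 CPM filter the same model gave medians of 2.01 and 2.11 and numbers of 58 and 24. The numbers at 4 or more were 298 and 57 with DESeq2's Wald test under its own filter and 276 and 50 in the edgeR test without the filter on low counts. Leaving out a library also lowered the filter to 1 CPM in 3 libraries. The median for DEGs higher in Holstein was then 4.14 without Gir animal 2 and 3.48 to 3.98 without another Gir animal. The number at 4 or more was 208 for DEGs higher in Holstein without Gir animal 5 and 207 without Holstein animal 3, and it was 39 for DEGs higher in Gir without Holstein animal 50 and 37 without Gir animal 5.

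**Figure D3:**
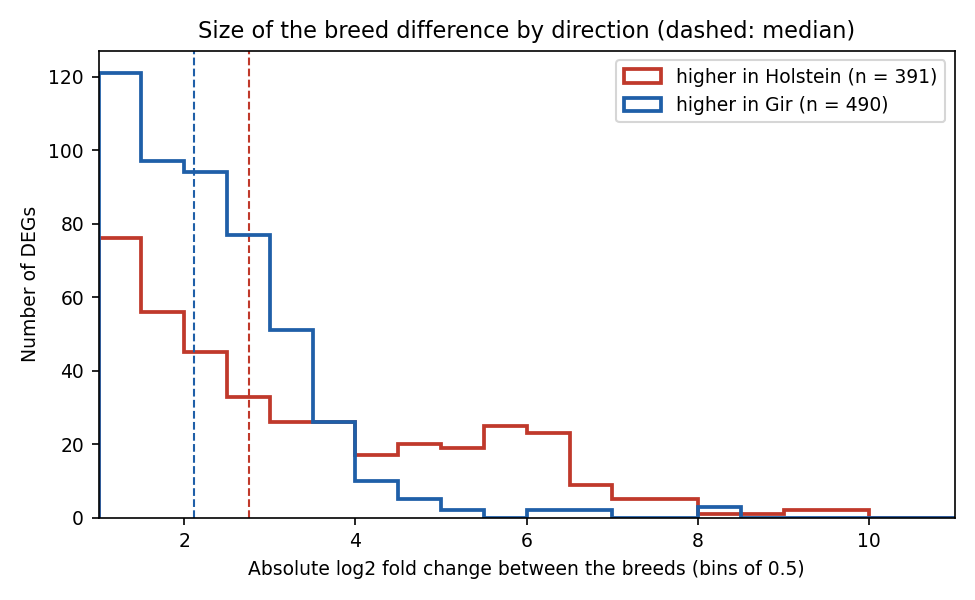
Number of DEGs in bins of the absolute log2 fold change between the breeds, for 391 genes higher in Holstein (red) and 490 genes higher in Gir (blue), with dashed lines at the medians of 2.75 and 2.11. Beyond 4 the red line lies above the blue in all bins up to 8, with 129 genes against 24 in all at 4 or more.

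Of the 129 large-fold DEGs higher in Holstein, 79 had a mean of 1 to 10 CPM, 39 a mean of 10 to 100 CPM and 10 a mean of 100 to 1000 CPM. Many of the large-fold genes were below 1 CPM in every LPS treated library of the lower breed. The 129 large-fold DEGs higher in Holstein had a median of 13.3 CPM in Holstein and 0.246 CPM in Gir, and the 24 higher in Gir had a median of 6.27 CPM in Gir and 0.188 CPM in Holstein. Of the 129, 84 reached 1 CPM in all 4 Holstein libraries and in no Gir library, and of the 24, 17 did so in the opposite direction. Because the filter asked for 4 libraries, a gene of this kind entered the test through 1 breed alone and had to differ. There were 135 such genes tested on the Holstein side, of which 121 were DEGs, and 53 on the Gir side, of which 46 were DEGs.

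The summed CPM of the 129 genes, scaled by library totals, was 7951, 2691, 14740 and 15450 in LPS treated MDMs of Holstein animals 1, 3, 20 and 50. It was 73.49, 338.5, 136 and 64.13 in those of Gir animals 2, 5, 6 and 7. Every Holstein library lay above every Gir library, as the choice of the genes requires, and Holstein animal 3 was the lowest of its breed. For 110 of the 129 genes animal 3 was the lowest Holstein library. The set was defined at a log2 fold change of 4 after the values had been seen.

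Without LPS the same 129 genes did not divide by breed. In unstimulated MDMs their summed CPM was 29080, 871.6, 37890 and 69440 in Holstein animals 1, 3, 20 and 50, and 27480, 106.6, 426.9 and 19620 in Gir animals 2, 5, 6 and 7. Gir animals 2 and 7 thus lay near Holstein animal 1, and Holstein animal 3 lay nearer to Gir animals 5 and 6 than to the rest of its breed. In Gir animals 2, 5, 6 and 7, 117, 22, 46 and 109 of the 129 genes reached 1 CPM without LPS, and 12, 43, 25 and 11 did so with LPS. In Holstein animals 1, 3, 20 and 50 the numbers were 124, 33, 125 and 126 without LPS and 129, 126, 129 and 129 with LPS. The number was thus lower with LPS in Gir animals 2, 6 and 7 and higher with LPS in Gir animal 5 and in all 4 Holstein animals. The genes were chosen for low values in the Gir libraries and high values in the Holstein libraries with LPS, so the numbers with LPS, and any step to them from the unstimulated libraries, are in part set by that choice. The unstimulated libraries were not part of the fit that chose the genes, and whether this set responded to LPS unequally in the breeds was not tested.

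The 24 large-fold DEGs higher in Gir kept the breeds apart in both conditions. With LPS the choice of the genes requires this, and the unstimulated libraries came from the same animals, so they are no independent support. Their summed CPM with LPS was 826.9, 431.1, 863.8 and 517.7 in Gir animals 2, 5, 6 and 7 and 18.36, 20.92, 26.03 and 28.36 in Holstein animals 1, 3, 20 and 50. Without LPS it was 386.6, 352.6, 846.3 and 334.6 in the Gir animals and 16.54, 48.73, 43.38 and 33.36 in the Holstein animals. Animal 6 was the highest Gir library in both conditions, but without the most abundant of the 24 genes animal 2 was the highest with LPS, at 668.5 against 414.1 in animal 6.

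**Figure D4:**
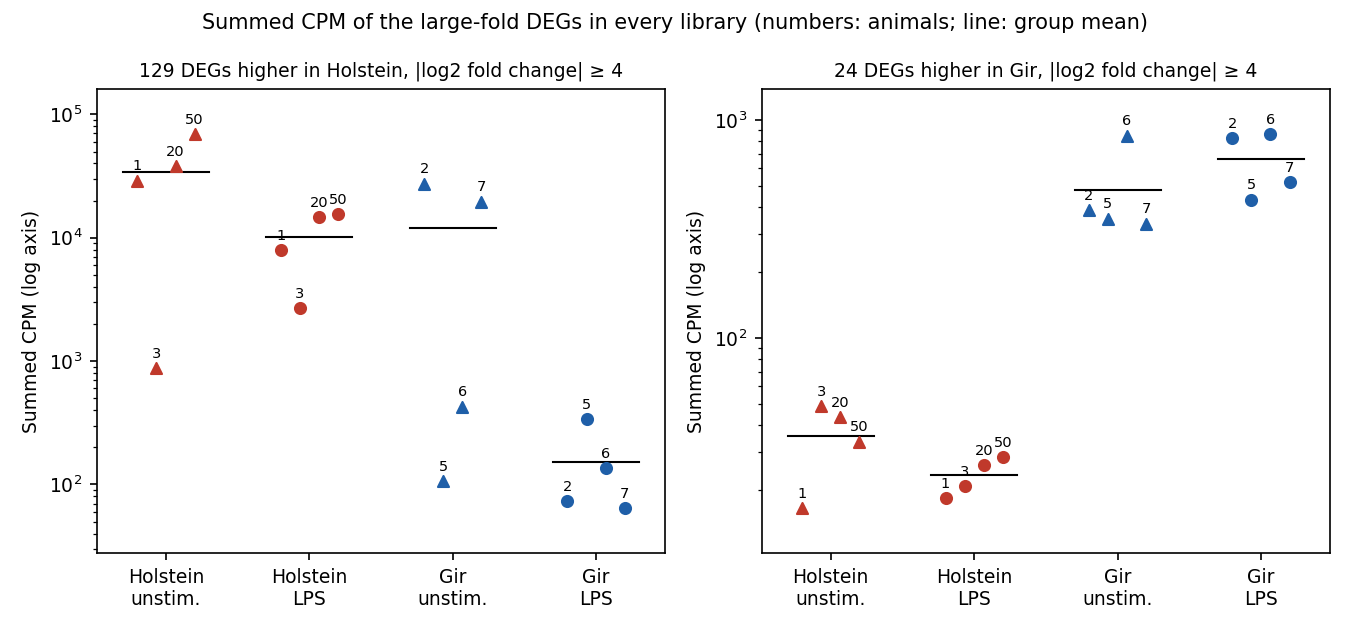
Summed CPM (log axis) of the 129 large-fold DEGs higher in Holstein (left) and the 24 higher in Gir (right) in every library, with circles for LPS, triangles for no stimulation, animal numbers beside the points and lines at group means. Without LPS the breeds overlap for the 129 genes, where Gir animals 2 and 7 lie at 27480 and 19620, and do not overlap for the 24.

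Among the DEGs of moderate fold the means of the breeds lay closer without LPS. These genes were chosen for a breed difference with LPS, so a smaller difference in the unstimulated libraries is in part set by that choice. Whether LPS changed the difference was not tested. The 262 higher in Holstein summed to 27720 ± 5750 CPM in Holstein and 8255 ± 763 in Gir with LPS, and to 18520 ± 3770 and 8970 ± 4000 without (SD, n = 4 each). Without LPS the lowest Holstein library, at 14230 CPM, was barely above the highest Gir library, at 14200 CPM, and without the most abundant gene of the set the breeds overlapped (11670 CPM in Holstein animal 3 and 13290 CPM in Gir animal 2). The 466 higher in Gir summed to 45870 ± 7660 CPM in Gir and 9099 ± 1200 in Holstein with LPS, and to 34680 ± 7690 and 14130 ± 5320 without (SD, n = 4 each). For these genes the lowest Gir library without LPS, at 23400 CPM, was above the highest Holstein library, at 21900 CPM. Without the most abundant gene of the set the breeds also stayed apart (20660 CPM in Gir animal 2 and 14400 CPM in Holstein animal 50).

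Gir animal 2 was the highest of its breed for 276 of the 490 genes higher in Gir (56.3%), while it was the highest for 24% of the other tested genes that were higher in Gir. On the Holstein side the highest library was animal 20 for 145 of 391 genes (37.1%) and animal 50 for 123 (31.5%), against 30.4% and 21.2% of the other tested genes that were higher in Holstein. The lowest Holstein library was animal 3 for 226 of the DEGs (57.8%), against 20.6% of those other genes. In 36 of the DEGs higher in Holstein (9.21%) and in 11 of those higher in Gir (2.24%), 1 animal held more than 50% of the CPM summed over the 4 libraries of the higher breed. Over all tested genes this share was 2.92%.

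Genes counted in 1 breed only were mostly at the floor. Of all genes in the files, 1678 had counts in Holstein and none in any Gir library, and 1279 of these had at most 3 counts in all. In the opposite direction there were 852, of which 745 had at most 3 counts. That left 399 and 107 genes above this floor, and 104 and 22 genes were counted in all 4 libraries of their breed. Of these one-breed genes, 3 and 1 passed the filter and were DEGs. A count of 0 over the 4 libraries allows up to 3 counts, which is 0.0894 CPM in Gir and 0.0873 CPM in Holstein, for counting error only.

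The 4 genes that follow, with CPM scaled by TMM over the 8 LPS libraries or, without LPS, over all 16, are the 2 most abundant DEGs of each direction whose CPM did not overlap between the breeds. ENSBTAG00000049589 was the most abundant DEG higher in Holstein. It had 6477, 10840, 20170 and 13130 CPM in Holstein animals 1, 3, 20 and 50 with LPS, and 2712, 3363, 5303 and 3631 CPM in Gir animals 2, 5, 6 and 7. The lowest Holstein library was above the highest Gir library by a narrow margin. The log2 fold change was 1.75 (SE 0.365, 3.37-fold, edgeR's quasi-likelihood test with Benjamini-Hochberg adjustment, adjusted p = 0.0154). The call was lost in a model of all 16 libraries (edgeR adjusted p = 0.0654), without Gir animal 2 (0.0548) and without Gir animal 7 (0.051), while the log2 fold changes there were 1.74, 1.62 and 1.72. Without LPS the gene had 854.2, 2438, 3324 and 757.1 CPM in the Holstein animals and 823.6, 521.6, 2244 and 845.4 CPM in the Gir animals, and the breeds overlapped.

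ENSBTAG00000013103 belonged to the 129 large-fold genes. It had 1159, 240.3, 2408 and 2686 CPM in the Holstein animals with LPS and 3.45, 48.85, 17.34 and 2.448 CPM in the Gir animals, whose counts were 32, 418, 123 and 20. The log2 fold change was 6.49 (SE 1.16, 90-fold, edgeR adjusted p = 0.00689), and the adjusted p was 0.0628 in the model of all 16 libraries. Without Gir animal 5, the highest of its breed, the log2 fold change was 7.72 (edgeR adjusted p = 0.00498). Without LPS it had 6284, 12.56, 7948 and 14590 CPM in Holstein animals 1, 3, 20 and 50 and 5965, 9.699, 73.17 and 5443 CPM in Gir animals 2, 5, 6 and 7. Holstein animal 3 and Gir animals 5 and 6 were low, and the other 5 animals were high, so the split ran across the breeds. With LPS, Gir animals 2 and 7, which were high without it, were the lowest of all.

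ENSBTAG00000005260 was the most abundant DEG higher in Gir. It had 18050, 11160, 19590 and 21890 CPM in the Gir animals with LPS and 2365, 802.4, 377.7 and 2755 CPM in the Holstein animals. The log2 fold change was -3.49 (SE 0.608, 11.2-fold higher in Gir, edgeR adjusted p = 0.00597). Without LPS it had 2465, 11320, 7883 and 14070 CPM in the Gir animals and 1837, 1113, 392.7 and 6873 CPM in the Holstein animals. The breeds overlapped without LPS because Gir animal 2 lay below Holstein animal 50.

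ENSBTAG00000037811 had 3866, 1881, 2705 and 2409 CPM in the Gir animals with LPS and 532.9, 123.2, 450.8 and 302.6 CPM in the Holstein animals. The log2 fold change was -2.95 (SE 0.441, 7.71-fold higher in Gir, edgeR adjusted p = 0.0028). Without LPS it had 251.6, 869, 1692 and 706.1 CPM in the Gir animals and 705.5, 94.93, 575.5 and 379.4 CPM in the Holstein animals. Gir animal 2 was the highest library with LPS and the lowest Gir library without it.

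**Figure D5:**
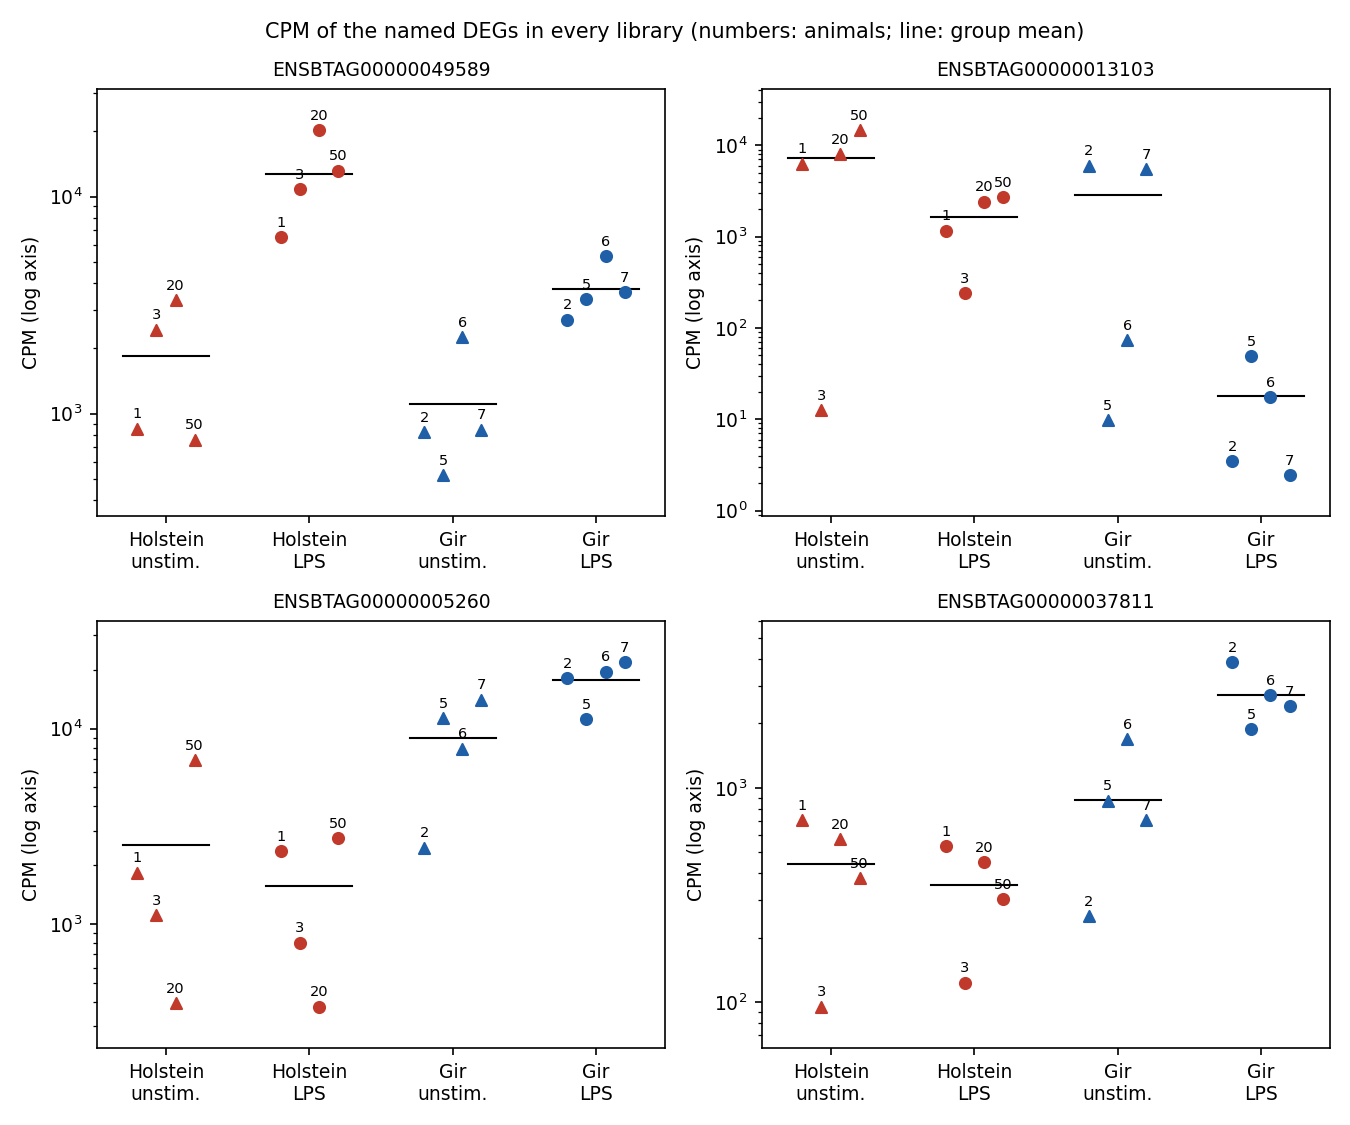
CPM (log axis) of the 4 named DEGs in every library, with red for Holstein, blue for Gir, circles for LPS, triangles for no stimulation, animal numbers beside the points and lines at group means. With LPS the breeds do not overlap for any of the 4 genes, as their choice requires, and without LPS they overlap for each.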

How the data were processed

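RNA of LPS treated and unstimulated MDMs was sequenced in 100 bp reads. The authors aligned the reads with STAR 2.6.0c and deposited HTSeq 0.10.0 counts per gene, raw and without normalization, and their processing notes also name edgeR 3.8. Those notes name the UMD3.1 build and the study's methods name ARS-UCD1.2, so the build is unsettled and no coordinates are given. Whether reads were counted by strand is not given in the sources used here. Both builds come from a taurine animal, and the part this has in the breed differences was not tested.

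The 5 summary lines of the counter were removed. Genes that reached 1 CPM in 4 or more of the 8 LPS libraries were tested with edgeR 4.0.16 (R 4.3.3, TMM scaling, quasi-likelihood test, Benjamini-Hochberg adjustment). A DEG had a log2 fold change of 1 or more in either direction at an adjusted p under 0.05. Library measures were compared by two-sided exact permutation tests over 35 splits into 4 and 4. Each of the 8 LPS libraries is 1 animal, and p-values from them measure the spread between animals. In the model of all 16 libraries each animal gave an LPS treated and an unstimulated library. That model had no term for the animal and pooled the spread of both conditions, so its libraries were not all independent. DESeq2 1.42.0, other scalings, filters and models, and leaving out each library served as alternatives, and figures were drawn with matplotlib 3.10.9. None of the 27607 identifiers matched the 37063 genes of the ARS-UCD2.0 reference table, so the 2 most abundant DEGs of each direction with no overlap between the breeds were named by identifier, and 1 DEG higher in Holstein that overlapped was passed over. The comparison, its rule and the lists were chosen with earlier results of these data known, and the split at a log2 fold change of 4 was added after the values were seen.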

Additional observations from a re-analysis of the deposited data

Results flagged for a closer look

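In 48 groups of 4 libraries, the gap of the highest or lowest library to its nearest neighbour was compared with the range of the group. It passed Dixon's limit in 2 groups, and chance alone passes it in about 1 of 20. The first was the number of tested genes with no count in Holstein libraries with LPS, where animal 50 had 8 and the other animals had 23 to 25 (ratio 0.882). Animal 50 also had the largest total, 10296054 counts. The second was the summed CPM of the 24 large-fold DEGs higher in Gir in unstimulated Gir libraries, where animal 6 stood at 846.3 and the others at 334.6 to 386.6 (ratio 0.898). Without the most abundant of the 24 genes the ratio was 0.37, below the limit, so the gap rested on 1 gene.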

How the results depend on the processing

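No paired analysis was possible because the breeds compared are different animals and share no animal number. The number of DEGs was 881, and it was 1412 with DESeq2's Wald test under its own filter, of which 767 were higher in Holstein. Without a filter on low counts 603 genes were higher in Holstein, and in a model of all 16 libraries 236 were, or 233 on the genes of the 1 CPM filter. The share of DEGs higher in Holstein moved from 44.4% to 54.3% with DESeq2 under its own filter, 52.2% without the filter and 32% with 16 libraries, but to only 47.4% with DESeq2 on the genes of the 1 CPM filter. The 2 fits on the genes of that filter were chosen after seeing the data. Leaving out 1 library at a time (with at least 1 CPM in 3 libraries) gave 712 to 977 DEGs, of which 640 to 776 were among the 881. The median absolute log2 fold change then ran from 2.66 to 4.14 for DEGs higher in Holstein, the highest without Gir animal 2, and from 2.13 to 2.29 for those higher in Gir. With a prior count of 2 the medians were 2.46 and 2.04, and in the model of 16 libraries they were 2.16 and 2.21 (2.01 and 2.11 on the genes of the 1 CPM filter). DEGs with a log2 fold change of 4 or more higher in Holstein numbered 208 without Gir animal 5 and 207 without Holstein animal 3, against 129, and those higher in Gir numbered 39 without Holstein animal 50 and 37 without Gir animal 5, against 24. The class of 10 to 100 CPM held more DEGs higher in Gir in 18 of 18 settings, and that of 1 to 10 CPM held more higher in Holstein in 17, the exception being the model of 16 libraries. Counting genes with at most 3 counts in the other breed in place of 0 gave 1182 genes above the floor in Holstein, against 399, and 453 in Gir, against 107. Without the most abundant DEG of each direction, the DEGs higher in Holstein took 2.53% of counts in Holstein (3.79% with it) and 0.474% in Gir (0.841%), and those higher in Gir took 0.752% in Holstein (0.912%) and 2.91% in Gir (4.65%). Without any 1 Holstein library the exact permutation p for tested genes at 0 was 0.0571. Beyond the choice of genes tested, the cause of these changes was not tested.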
